A study of Mus musculus with 14 samples.

Results

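H3K27me3, the repressive histone mark that Polycomb repressive complex 2 (PRC2) writes, was examined at genes for axon guidance ligands and receptors in mouse primary hippocampal neurons after knockdown of the long noncoding RNA NeuID. The genes were the protein-coding genes of GENCODE M21 whose symbols place them among the semaphorins, plexins, ephrins, Eph receptors, Slits, Robos, netrins and Unc5 genes, and the peaks were all deposited peaks that overlapped one of these genes or the 5 kb on either side. The rule found 68 genes, of which 39 held 120 of the 23668 deposited peaks, and no peak belonged to more than 1 of these genes. The rule itself used symbols and positions and no measured value. The symbol rule also took in Unc50 and Unc5cl, which are not netrin receptors; Unc50 held no peak and Unc5cl held 1.

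By title, 6 ChIP libraries belonged to the control and 6 to the NeuID knockdown, each from wild-type primary hippocampal neurons in Neurobasal medium with B27, and 1 input library per condition. The cultures came from late embryos of CD1 mice in mixed-sex litters, and NeuID or non-targeting gapmers, antisense oligomers that lead to cleavage of the paired RNA, were given to them in lipid nanoparticles. The same culture and delivery applied to both groups. Such cultures are dissociated neurons without their normal targets, which limits them as a model of axon growth. The labels do not say whether the libraries came from separate cultures.

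The deposited table gives 1 log2 mean of normalized reads per peak for each group and 1 over all libraries. Single libraries could not be read from these means, so the spread between replicates is unknown, no value below has an SD, and no difference between the groups was tested. The weight of the control in the overall mean (0.545) was that of 6 control and 5 knockdown libraries. A group mean at or below 1 normalized read is listed at 0. Such peaks were counted separately and given no difference. A lower mean can come from less of the mark per cell or from fewer cells that carry it, and these cannot be told apart in bulk cultures.

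Axon guidance proteins steer growing axons by attraction and repulsion. Semaphorins signal through plexins, ephrins through Eph receptor tyrosine kinases, Slits through Robo receptors, and netrins through Dcc and Unc5 receptors. In the mature hippocampus several of them also act at synapses. PRC2 keeps many developmental genes silent in differentiated cells and is found most often at gene starts rich in CpG dinucleotides.

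To show the DNA under the peaks that the results turn on, 200 bases are printed for 5 of them from the GRCm38 reference (RefSeq), 5′ to 3′ on the strand of the gene, with every CpG in capitals. The first 3 are centred on an annotated transcript start, in the strongest start-covering peak of the Eph receptors, ephrins and Robos. The other 2 are the centres of the Epha6 and Ntn1 peaks that differed by at least 2 on the log2 scale and had the highest overall means in each direction.
Epha10, transcript start inside the gene, chr4:124885699-124885898, plus strand: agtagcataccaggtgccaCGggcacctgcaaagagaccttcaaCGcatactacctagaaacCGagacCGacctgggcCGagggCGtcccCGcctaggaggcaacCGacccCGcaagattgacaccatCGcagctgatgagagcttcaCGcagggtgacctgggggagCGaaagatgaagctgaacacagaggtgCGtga
Efna3, transcript start inside the gene, chr3:89321532-89321731, minus strand: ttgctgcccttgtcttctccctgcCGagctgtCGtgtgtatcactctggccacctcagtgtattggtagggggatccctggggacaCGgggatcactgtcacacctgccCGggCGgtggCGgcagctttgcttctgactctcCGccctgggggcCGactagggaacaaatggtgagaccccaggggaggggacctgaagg
Robo3, gene start, chr9:37433147-37433346, minus strand: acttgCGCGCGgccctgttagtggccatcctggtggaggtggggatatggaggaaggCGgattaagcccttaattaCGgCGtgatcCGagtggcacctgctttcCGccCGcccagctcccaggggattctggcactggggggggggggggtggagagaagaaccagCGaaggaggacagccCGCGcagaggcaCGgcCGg
Epha6, peak centre before the gene start, chr16:60605860-60606059, minus strand: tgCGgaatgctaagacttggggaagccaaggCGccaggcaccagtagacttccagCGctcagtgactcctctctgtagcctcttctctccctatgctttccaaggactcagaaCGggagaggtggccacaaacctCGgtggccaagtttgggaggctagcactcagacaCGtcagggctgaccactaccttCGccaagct
Ntn1, peak centre in an intron, chr11:68398203-68398402, minus strand: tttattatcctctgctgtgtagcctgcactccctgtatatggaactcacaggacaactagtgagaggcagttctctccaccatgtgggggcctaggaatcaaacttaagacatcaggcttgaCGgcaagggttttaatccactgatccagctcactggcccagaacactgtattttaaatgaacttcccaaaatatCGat

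The Robo3 window held 14 CpG, the Epha10 window 13, the Efna3 window 8, the Epha6 window 7 and the Ntn1 window 2. Windows of the same length at 21938 protein-coding gene starts had a median of 10 CpG, and those at the centres of 23642 peaks had a median of 2. At least 14 CpG were present in 40.6% of gene starts and 5.99% of peak centres. The Ntn1 window had a count that 66.2% of peak centres reached.

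H3K27me3 peaks were present at 57.4% of the axon guidance genes and at 28.0% of all 21951 protein-coding genes. Gene length moved with this share: the median length was 42.0 kb for the axon guidance genes and 17.4 kb for all protein-coding genes, and within the families it was 143 kb for genes with a peak and 22.8 kb for those without. Its part in the share was not tested. Among the ligands, 10 of 20 semaphorin genes, 2 of 8 ephrin genes, 2 of 3 Slit genes and 3 of 4 netrin genes held a peak. Among the receptors, these were 4 of 9 plexin genes, 10 of 14 Eph receptor genes, 3 of 4 Robo genes and 5 of 6 Unc5 genes. No peak was listed for Slit2, Epha5, Sema3a, Robo4, Ntn3 or any of the 3 ephrin-B genes. In the class 3 semaphorins, the secreted ligands of neuropilin and plexin complexes, 2 of 7 genes held 1 weak peak each.

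The mark at these genes was mostly weak and narrow, as it was over all peaks. The median overall mean was 2.95 over the member peaks and 2.93 over all peaks on the log2 scale, and the median width was 442.5 bp against 426 bp. An overall mean of at least 4, which is 16 normalized reads per library, was reached by 13 member peaks (10.8%), against 14.1% of all peaks and 19.7% of peaks in the window of any protein-coding gene. These 13 peaks lay at Ntn1 (3 peaks), Epha10 (3), Efna3 (2), Efna5 (2), Robo3 (1), Epha8 (1) and Sema6b (1), the last of them in the gene body of Lrg1. Their median GC content was 60.3%, compared with 50.9% for the 61 members with an overall mean below 3. Median CpG content was 5.82 and 1.33 per 100 bases in these same groups.

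Most member peaks lay inside genes and away from starts. Introns held 63 of the 120 peaks (52.5%, against 44.3% of the 13295 peaks in protein-coding windows), coding exons 10, non-coding exon parts 2, the upstream flank 10 and the downstream flank 4. A start of any annotated transcript of the gene was covered by 9 peaks (7.5%, against 13.5%), and 22 more lay within 1 kb of one.

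To determine whether the mark differed between the groups, the knockdown mean was compared with the control mean on the log2 scale in the 111 member peaks with both means above 0. The knockdown was lower by at least 1, a 2-fold difference, in 22 member peaks (19.8%) and higher by at least 1 in 21 (18.9%). Over all peaks the same limits were passed by 18.5% in the lower and 18.4% in the higher direction, so the shares at the axon guidance genes were near the background. The knockdown mean was below the control in 63 member peaks, or 56.8% (95% Wilson interval 47.5 to 65.6%, counting peaks only), compared with 50.8% of all peaks. The median difference was -0.12 for the members and -0.02 for all peaks. The members with differences closest to the limit were Efna5 (-0.99) and Ephb1 (0.97) within it, and Unc5d (-1.02) and Ntn4 (-1.05) beyond it.

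**Figure D1:**
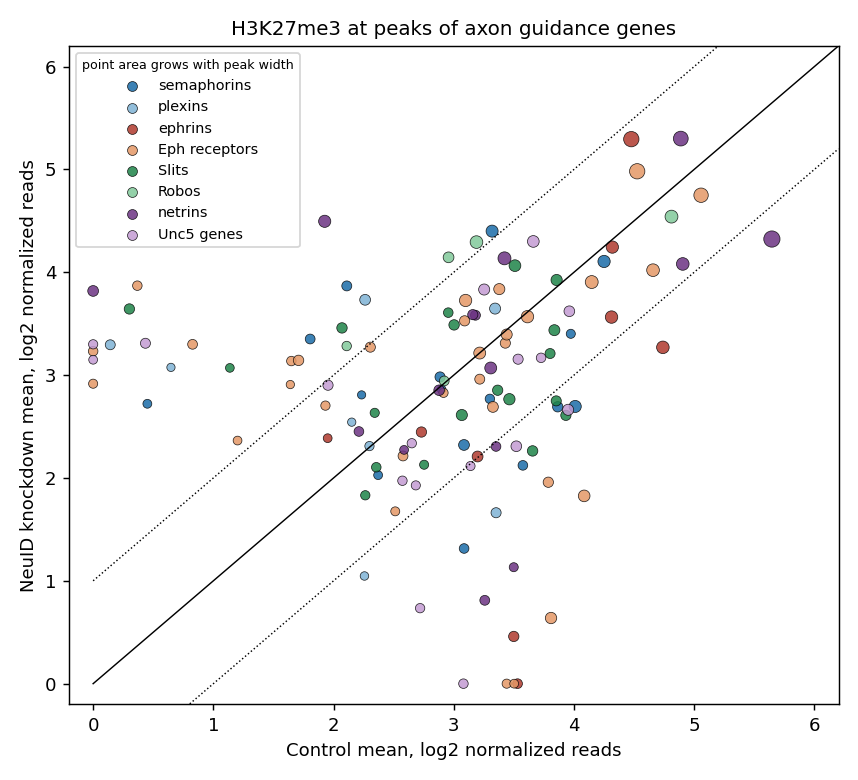
Each of the 120 peaks at axon guidance genes is plotted by its control mean (x axis) and NeuID knockdown mean (y axis), both in log2 normalized reads, coloured by family and with point area growing with peak width. The solid line marks equal means and the dotted lines a difference of 1. Of the peaks at the upper right, an Ntn1 peak (5.65 and 4.32) and an Efna5 peak (4.74 and 3.27) lie beyond a dotted line. Of the 13 peaks that differ by at least 2, 10 have a group mean below 1 on the log2 scale.

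Of the 13 members with an overall mean of at least 4, 2 (15.4%) were lower by at least 1 and 0 were higher. Over all 3344 peaks of this strength 9.12% were lower and 5.02% higher. The knockdown mean was below the control in 10 of the 13 (76.9%, Wilson interval 49.7 to 91.8%), compared with 57.4% of all peaks of this strength. Differences of at least 2 were seen in 13 member peaks, 5 lower (background 5.63%) and 8 higher (background 5.53%). Of these 13 peaks, 10 had an overall mean below 3 and 10 had a group mean below 1, both on the log2 scale. At such means few reads set the size of the difference. A group was listed at 0 in 9 further peaks, the knockdown in 4 (background 3.35%) and the control in 5 (background 3.28%). From the weights of the libraries, the unlisted means of these groups came to between 0 and 0.947 normalized reads.

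By family, median differences ran from -0.52 in the ephrins to 1.10 in the Robos. The medians were -0.24 in the semaphorins (16 peaks, 4 lower and 4 higher by at least 1), 0.35 in the plexins (8 peaks, 2 lower and 3 higher), -0.52 in the ephrins (8 peaks, 2 lower and 0 higher) and -0.04 in the Eph receptors (27 peaks, 3 lower and 6 higher). They were -0.40 in the Slits (19 peaks, 3 lower and 3 higher), 1.10 in the Robos (5 peaks, 0 lower and 3 higher), -0.13 in the netrins (14 peaks, 4 lower and 1 higher) and -0.47 in the Unc5 genes (14 peaks, 4 lower and 1 higher). The exact binomial 95% interval of the median covers the spread over peaks and not over libraries. It included 0 in each of the 7 families large enough to have one, and the Robos had too few peaks. With 8 peaks each, the plexin (-1.69 to 3.15) and ephrin (-3.04 to 0.82) intervals were the whole range of peaks. They included 0 because peaks of both signs were present. Several of these directions rested on the choice of peaks. The median turned positive in the semaphorins with peaks within 5 kb of a transcript start (0.10), in the ephrins with 1 peak per gene (0.37), in the Eph receptors with the gene body alone (0.44) and in the netrins under 3 alternatives (0.40 to 0.43). The Robo median was 0.02 over the 3 peaks in gene bodies, and the log2 ratio of the summed Robo reads was 0.46. Ligand families together had a median of -0.28 over 57 peaks and receptor families -0.02 over 54, and their 95% intervals (-0.57 to 0.10 and -0.31 to 0.46) overlapped.

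**Figure D2:**
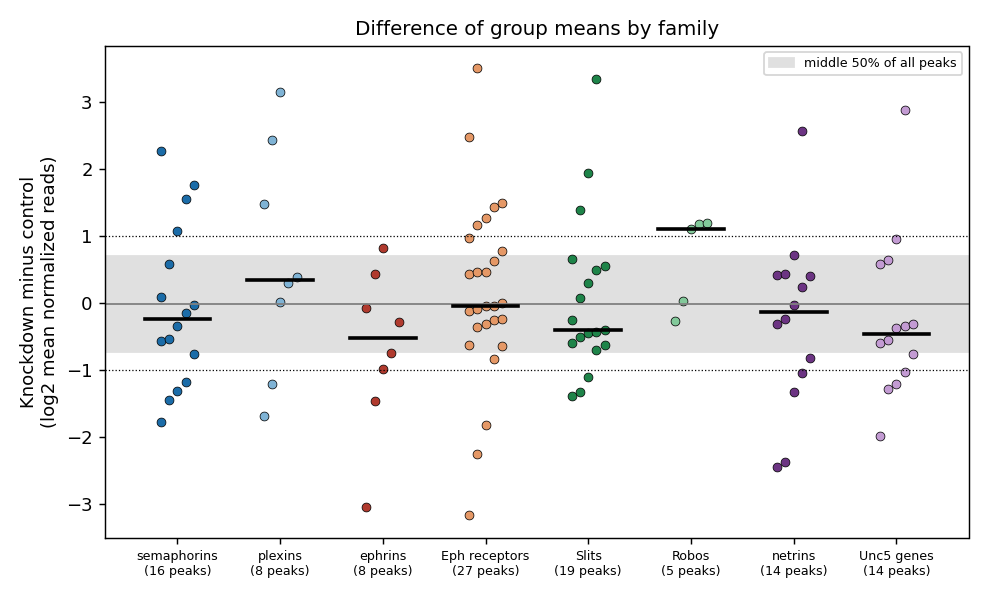
Points show the knockdown minus control difference of the log2 means for each peak with both groups above 0, by family; black bars are family medians, the grey band is the middle 50% of all peaks and dotted lines mark differences of 1. Apart from the Robos at 1.10, the family medians lie inside the band, and single peaks of most families scatter on both sides of 0.

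Among the ligands, the strongest peak lay at Ntn1 (overall mean 5.19). The strongest peaks of the other marked netrin genes, Ntn4 and Ntn5, had overall means of 3.79 and 3.37. Ntn1 (chromosome 11, 68209364 to 68400823, mm10), which encodes the attractant and repellent netrin-1, had 10 peaks. At the peak within 1 kb of the gene start (68399860 to 68400739), the control mean was 4.90 and the knockdown mean 4.08. The intronic peak next to it (68397910 to 68398695), whose centre is printed above, had 1.93 in the control and 4.50 in the knockdown, a difference of 2.57. Neighbouring peaks of the same gene thus lay on opposite sides of 0.

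The strongest Ntn1 peak, in an intron (68390576 to 68392252), had a mean of 5.65 in the control and 4.32 in the knockdown, a difference of -1.32. A CpG-rich peak within 1 kb of an internal transcript start (68384695 to 68386023) had 4.89 and 5.30. Farther into the gene, a pair of intronic peaks 87.1 and 89.3 kb from the start had 3.50 and 3.26 in the control and 1.13 and 0.81 after knockdown. A peak from 68286262 to 68286802 was listed at 0 in the control and at 3.82 in the knockdown. Summed over its 10 peaks (7174 bp), Ntn1 had 156 normalized reads per library in the control and 142 in the knockdown, a log2 ratio of -0.14. Differences of at least 2 in both directions therefore stood within a gene whose sum differed by less than 1. The peak over the start of Ntn4 (chromosome 10, 93640434 to 93641372), a laminin-binding netrin, had 3.42 in the control and 4.14 in the knockdown.

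Among the ephrins, only the membrane-anchored ephrin-A genes Efna3 and Efna5 held peaks. Efna5 (chromosome 17, 62604184 to 62881317), whose product repels axons that carry EphA receptors, had 6 peaks, of which the 5 with both groups above 0 included 4 below the control. The peak nearest its start (62879451 to 62880257) had 4.32 in the control and 4.24 in the knockdown. An intronic peak 8.94 kb from the start (62871946 to 62872808) had 4.74 and 3.27, a difference of -1.47. Of the peaks between them, one (62873763 to 62874136) had 3.53 in the control and was listed at 0 in the knockdown, and the other (62878341 to 62878810) had 3.50 and 0.46. The low knockdown values thus lay in introns, and the means were nearly equal at the CpG-rich peak by the start. The sum for Efna5 was 82.6 normalized reads in the control and 40.8 in the knockdown, a log2 ratio of -1.02. Efna3 (chromosome 3, 89313899 to 89322965) had 4.48 (control) and 5.29 (knockdown) at the peak whose transcript start is printed above (89320498 to 89321955), and 4.31 and 3.56 at the next peak (89319346 to 89320182). Its summed log2 ratio over 3 peaks was 0.21.

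The Slits, secreted repellents of crossing axons, held 19 peaks at Slit1 and Slit3. At the start of Slit1 (chromosome 19, 41743104 to 41743725) the control mean was 3.86 and the knockdown mean 3.92. At Slit3, a peak over an internal transcript start (chromosome 11, 35544491 to 35544926) had 3.85 in the control and 2.75 in the knockdown, a difference of -1.10. Single Slit1 peaks ran from -1.39 to 3.34 and single Slit3 peaks from -1.10 to 1.93. The gene sums differed little, with 86.8 and 85.3 normalized reads at Slit1 and 84.4 and 78.1 at Slit3 in control and knockdown.

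Semaphorin peaks were few and scattered over 10 genes. Sema5a, a membrane semaphorin with thrombospondin repeats, had a peak over an annotated transcript start just inside the gene (chromosome 15, 32244998 to 32245548) with 3.08 in the control and 2.32 in the knockdown. The strongest peak assigned to Sema6b (chromosome 17, 56120009 to 56120814), a transmembrane ligand of A-type plexins, lay in its downstream flank and had 4.25 and 4.10. An intronic Sema5a peak had a difference of -1.45. The Sema6b peak over coding exons had -1.31, and the 3 Sema5b peaks, all upstream of the gene, had 1.76, -0.57 and -1.17. The 3 peaks of Sema6b summed to 39.8 normalized reads in the control and 30.7 after knockdown, and those of Sema5b to 34.6 and 31.6. The single peaks of Sema3c, Sema4f and Sema6c were higher in the knockdown by 2.27, 1.55 and 1.08, and that of Sema6a was lower, with a difference of -1.77. The peaks of Sema3d, Sema4c and Sema6d differed by less than 1, and no semaphorin peak was listed at 0 in either group.

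Among the receptors, the Eph receptor genes held 31 peaks, the most of any family. Epha10 (chromosome 4, 124880899 to 124917800), whose product lacks a normal kinase activity, had 8 peaks near its 5′ end. The peak over the transcript start printed above (124885266 to 124886506) had 5.06 in the control and 4.75 in the knockdown. A wide peak over coding exons (124894567 to 124896018) had 4.53 and 4.98, and one closer to the gene start (124881918 to 124882802) had 4.66 and 4.02. The 3 strong peaks thus differed by less than 1, in both directions. The sum over 8 peaks (5901 bp) was 132 normalized reads in the control and 115 in the knockdown, a log2 ratio of -0.19.

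Epha4 (chromosome 1, 77367185 to 77515088), a receptor for both ephrin classes with a known part in synaptic plasticity, was chosen for its peak values after these had been seen. Its 3 intronic peaks had control means of 1.20, 0.37 and 0.83 and knockdown means of 2.36, 3.87 and 3.30. All 3 were higher in the knockdown by at least 1, which was the case for 0.33% of the 1513 protein-coding genes with at least 3 peaks above 0 in both groups. All peaks were lower by at least 1 at 0.132% of these genes and at 0 axon guidance genes. Epha4 was picked from 17 axon guidance genes of this kind after its values were seen, so the 0.33% does not measure how unusual it is. The sum was 5.36 normalized reads in the control and 29.6 in the knockdown, a log2 ratio of 2.46. The control means were only 2.30, 1.29 and 1.77 normalized reads, near the floor of 1, so few reads set the size of this ratio. None of the 3 peaks lay within 1 kb of a transcript start.

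At Epha6, a pair of peaks beside the gene start pointed in opposite directions. The one before the start, whose centre is printed above (chromosome 16, 60605612 to 60606307), had 4.08 in the control and 1.83 in the knockdown, a difference of -2.26, and the one just inside the gene (60605005 to 60605185) had 1.64 and 2.91. Their gap was 426 bp. At Ephb1, a receptor for B-type ephrins, an intronic peak (chromosome 9, 102246788 to 102247434) had 3.81 in the control and 0.64 after knockdown, while the sum over its 5 peaks was 37.6 and 40.7 normalized reads. The strongest peak assigned to Epha8 (chromosome 4, 136926531 to 136927457), in its downstream flank, had 4.15 and 3.90.

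At Epha2, 3 peaks lay around the gene start. The one just inside the gene (chromosome 4, 141301318 to 141301773) had 3.09 in the control and 3.53 after knockdown, the one before it (141300177 to 141300992) had 3.10 and 3.73, and the one over an internal transcript start (141301964 to 141302551) had 3.44 and 3.39. At Epha3, a peak over a transcript start (chromosome 16, 63863823 to 63864138) had 1.93 and 2.70. A group was listed at 0 at Epha8 and Ephb2, where the knockdown was at 0 and the control at 3.50 and 3.44, and at Epha1, where the control was at 0 and the knockdown at 3.23. An intronic Epha6 peak was also listed at 0 in the control and at 2.92 in the knockdown. The Epha8 and Epha1 peaks of this kind lay within 1 kb of a transcript start. At Epha7, which held 1 peak upstream of the gene, the control mean was 3.33 and the knockdown mean 2.69. The unlisted knockdown mean was 0 normalized reads at Ephb2 and 0.913 at Epha8.

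The Robos, the Slit receptors, had the highest family median, from 5 peaks in 3 genes. The peak over the start of Robo3 (chromosome 9, 37432627 to 37433544), printed above, had 4.81 in the control and 4.54 in the knockdown. The peak just upstream of it (37433814 to 37434690) had 3.19 and 4.29. The single peak of Robo1 lay within 1 kb of an internal transcript start, 667 kb into the gene, and that of Robo2 just before its gene start. These peaks had 2.96 and 2.11 in the control and 4.14 and 3.28 in the knockdown, differences of 1.19 and 1.17. Of the 5 peaks, the strongest was thus slightly lower in the knockdown, and 3 weaker ones were higher by at least 1.

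Plexin peaks were the weakest, with a median overall mean of 2.34. Plxnd1, the receptor of Sema3e, had 4 peaks, all higher in the knockdown by 0.01 to 1.47, and its sum was 24.3 normalized reads in the control and 36.6 in the knockdown. Every peak was higher in 6.87% and every peak lower in 6.68% of the 1513 protein-coding genes. Besides Epha4 and Plxnd1, no axon guidance gene with at least 3 such peaks had all of them higher, and Epha8 alone had all of them lower (by 0.24 at most). The peaks of Plxna4, Plxnb3 and Plxnc1 had overall means below 3 and differences of both signs, -1.21 and 3.15 at Plxna4, -1.69 at Plxnb3 and 2.43 at Plxnc1.

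Of the Unc5 genes, the dependence receptors for netrins, Unc5a and Unc5b held most peaks. The sums over 7 and 6 peaks were 72.9 and 49.0 normalized reads in the control and 61.7 and 44.9 in the knockdown. The strongest Unc5a peak (chromosome 13, 54950204 to 54950908), within 1 kb of a transcript start, had 3.66 in the control and 4.30 in the knockdown. The peaks of Unc5b ran from a difference of -1.29 at an intronic peak 3.67 kb from the start to 2.87 at the 3′ end of the gene. Both peaks of Unc5d were lower by at least 1, with differences of -1.02 and -1.99. An Unc5a peak before the start (54946591 to 54946938) had 3.08 in the control and was listed at 0 in the knockdown, with an unlisted mean of 0. The control was listed at 0 at Unc5c, where the knockdown was at 3.30, and at Unc5cl, where it was at 3.15.

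Summed reads were compared over the 18 genes with at least 3 peaks, which held 93 of the 120 peaks. The sum was lower by at least 1 on the log2 scale at 1 gene, Efna5 (background 2.72% of 1617 protein-coding genes), and higher by at least 1 at 1 gene, Epha4 (background 3.28%). The other 16 genes lay within 1. The median log2 ratio was -0.12 for the axon guidance genes and -0.06 for all protein-coding genes with at least 3 peaks. Over all 120 peaks (61266 bp), the summed means were 1192 normalized reads in the control and 1156 in the knockdown, a log2 ratio of -0.04, the same as for all peaks. The authors' normalization was not stated and may fix such ratios.

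**Figure D3:**
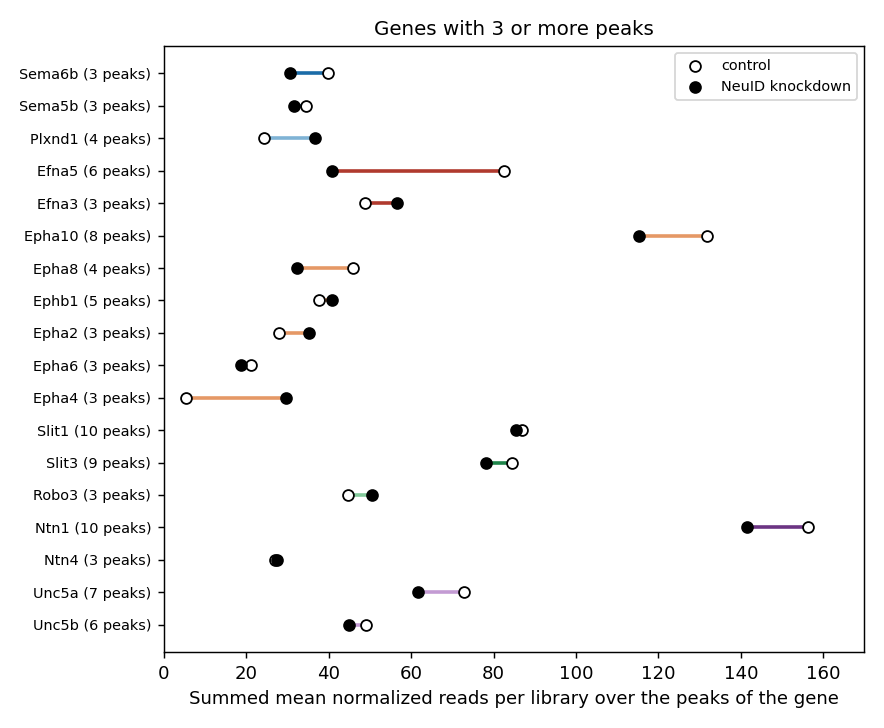
Summed mean normalized reads per library (x axis) are shown for the 18 axon guidance genes with at least 3 peaks, with open circles for the control, filled circles for NeuID knockdown and lines coloured by family. Efna5 (82.6 to 40.8) and Epha4 (5.36 to 29.6) have log2 ratios beyond 1, and the strongly marked Ntn1 and Epha10 differ by -0.14 and -0.19.

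Directions were compared between neighbouring peaks of the same gene. Among 34 pairs of adjacent member peaks less than 5 kb apart with both groups above 0, in 17 genes, the differences had the same sign in 15 pairs (44.1%), compared with 52.7% of 7468 such pairs over all peaks. At Epha10 the first 5 peaks from the 5′ end were all below the control, by 0.26 to 1.83. Adjacent peaks with opposite signs lay within 1 kb of each other at Robo3, Sema5b, Slit1, Slit3, Unc5a, Efna3, Epha2, Epha6, Epha10, Ntn4 and Ntn5. Pairs as close with the same sign lay at Efna3, Efna5, Epha2, Epha10, Ntn1, Plxnd1 and Sema5b.

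**Figure D4:**
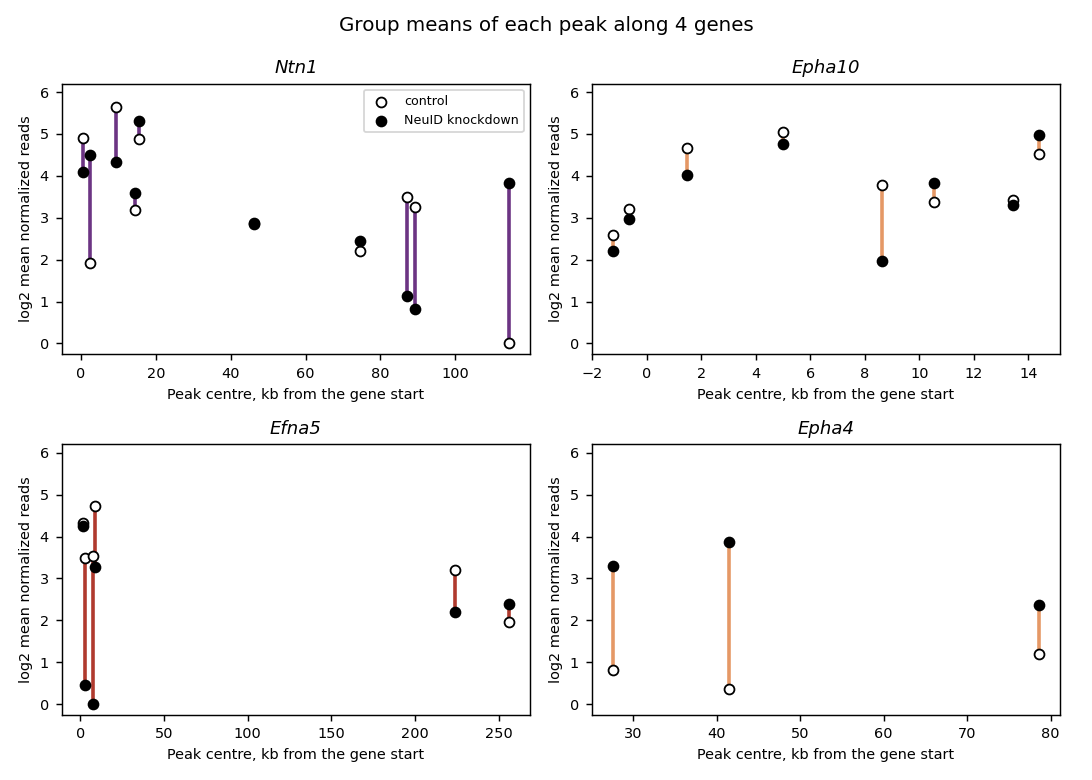
For Ntn1, Epha10, Efna5 and Epha4, each peak is placed by the distance of its centre from the gene start in kb (x axis, positive into the gene), with the control mean as an open and the NeuID knockdown mean as a filled circle in log2 normalized reads. At Ntn1 peaks differ in both directions, at Epha10 the strong peaks stay within 1 of each other, and at Epha4 all 3 knockdown means lie above control means of 0.37 to 1.20.

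Composition of the DNA was set beside the differences because the rule did not use it. At least 5 CpG per 100 bases were present in 22 member peaks (18.3%, against 8.22% of all peaks, which include peaks far from genes). The median was 1.46 CpG per 100 bases in the members and 1.23 in all peaks. In peaks in protein-coding windows it was 1.53, so by the median the members were not richer in CpG than these. Of the 22 members with at least 5 CpG per 100 bases, 2 were lower and 3 higher by at least 1, and none was listed at 0. Below 2 CpG per 100 bases there were 76 peaks, of which 17 were lower, 13 higher and 8 listed at 0 in 1 group. Differences beyond 1 were thus found in 22.7% of the CpG-rich and 44.1% of the CpG-poor members with both groups above 0, and over all peaks in 24.3% and 40.0%. The CpG-rich members were also stronger, with a median overall mean of 3.68 against 2.87, and the parts of strength and composition were not tested. The 9 peaks over a transcript start had a median difference of -0.05, with 1 lower and 0 higher by at least 1. Over the 20 peaks within 1 kb of a start with both groups above 0 the median was 0.41 (2 lower and 5 higher), and over the 57 such intronic peaks it was -0.34 (14 lower and 11 higher). Over all peaks in protein-coding windows the medians for the same places were -0.03 over a start, 0.04 within 1 kb of one and -0.0045 in introns. Without regard to place, 17.5% of the peaks in these windows with both groups above 0 were lower and 17.3% higher by at least 1.

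Co-receptors, adhesion partners and effectors of the same pathways were read from a separate list of 43 genes. Of these, 24 held 43 peaks, while 28.0% of all protein-coding genes held a peak. Among the 39 peaks with both groups above 0, 8 were lower and 8 higher by at least 1. The background over all peaks was 18.5% lower and 18.4% higher, so these counts were near it. The median difference was 0.05. The knockdown was listed at 0 in 1 peak (background 3.35%) and the control in 3 (background 3.28%). Dcc, the attractive netrin receptor, held 2 weak peaks. One was higher in the knockdown by 2.16, and the other was listed at 0 in the control and at 3.15 in the knockdown. Nrp2, a semaphorin co-receptor, held 1 weak peak, higher in the knockdown by 1.42, whereas none was listed at Nrp1. Dscam, which also binds netrin, had 5 peaks, 3 lower and 1 higher by at least 1, with a summed log2 ratio of -0.52. The strongest peak of the list was at Gfra3, with a summed log2 ratio of -0.21 for its 1 peak.

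Cell type could not be checked from expression, since the mark is not a measure of RNA. Peaks were listed at 7 of 11 neuronal marker genes (among them Gad1, Slc17a7 and Tubb3), 2 of 5 astrocyte, 5 of 7 oligodendrocyte lineage, 1 of 5 microglial and 4 of 4 endothelial marker genes. The share over all protein-coding genes was 28.0%. These lists are short and gene length was not compared for them, so the counts are not read as a cell type pattern.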

How the data were processed

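H3K27me3 ChIP-seq libraries were grouped by sample title as control or NeuID knockdown. Reads were aligned to mm10 by the authors (Bowtie2), peaks were called by MACS2 with its broad option, and the groups were compared in DiffBind (DESeq2 option); tool versions, normalization, peak merging and input subtraction are not given in the sources used here. The deposited table holds the log2 mean of normalized reads per peak, over all libraries and per group. Its fold change, p-value and FDR columns hold the authors' own comparison and were not used. The number of unused per-sample columns was 0. Input libraries were not used.

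Differences were computed as knockdown minus control log2 mean, and sums from the listed means, with a group listed at 0 counted as 1 normalized read. Peaks were assigned by an overlap of at least 1 bp with the gene body plus 5 kb (GENCODE M21, GRCm38, the assembly mm10 names). The limit of 1 and the strength minimum of 4 are on the log2 scale. Without values per library no test was possible, and depth per library is unknown, so precision could not be computed. Binomial intervals cover counting over peaks, which are not replicates. Sequences came from GRCm38.p6; 75 RefSeq promoters of the genes matched the genome at the table's coordinates.

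Members and lists were chosen with earlier results of these data known. Every gene with a peak could be named. Single peaks were given where they were the strongest of a gene with an overall mean of at least 4, covered a transcript start, differed by at least 2 with an overall mean of at least 3, or were listed at 0 in 1 group with the other at 3 or more; further peaks were chosen after their values were seen. Counts and medians were recomputed under other limits, filters and windows. The calculations were tested on simulated data. Software was matplotlib 3.10.9, pandas 2.3.3, numpy 2.4.6 and SciPy 1.17.1 under Python 3.11.15.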

Additional observations from a re-analysis of the deposited data

How the results depend on the processing

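No paired analysis was possible because the deposited values are group means; for the same reason no library could be left out. Of the alternatives to the count of 22 lower and 21 higher member peaks, an overall mean of at least 3 left 13 and 6, an overall mean of at least 4 left 2 and 0, a width of at least 500 bp left 7 and 5, a window of 5 kb around transcript starts left 9 and 11, 1 peak per gene left 6 and 8, a limit of 1.5 left 9 and 11, and a limit of 2 left 5 and 8. Each of these tests fewer peaks or sets a stricter limit. The direction with more peaks changed with the setting. The share of members below the control was 76.9% with an overall mean of at least 4 (13 peaks, against 57.4% of all peaks of that strength) and stayed inside its 95% interval under the other 8 alternatives. The median difference of the members stayed negative under all 10 alternatives, between -0.27 and -0.0015. The Robo median reversed to -0.27 when overall means of 4 or more were required, which left 1 peak, and was 0.02 with the gene body alone and 0.46 as a ratio of sums. The other family medians stayed within their intervals under every alternative. For the plexins and ephrins this says little, since their intervals ran from the lowest to the highest peak. A median over fewer of the same peaks could not leave such an interval. The sign changed in the semaphorins (to 0.10), ephrins (0.37), Eph receptors (0.44) and netrins (up to 0.43) under at least 1 alternative. Peaks near 1 normalized read limit the size of single differences.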
